A study of Mus musculus with 8 samples.

Results

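Hemoglobin and erythroid genes were followed in 8 arrays of mouse heart muscle. They are the genes of adult alpha-globin (Hba-a1, Hba-a2) and adult beta-globin (Hbb-b1, Hbb-b2), together with Alas2, Slc4a1 and Bpgm. The 7 genes were listed by name, and their probes were found through the RefSeq transcript that the array assigns to each probe. Of the 7 genes, 6 had a probe, 1 each, among 19058 named genes tested. Hbb-b1 matched none: the array's adult beta-globin transcript of that older name is now listed under Hbb-bt. Hbb-bs and Hbb-bt, other adult beta-globin genes, are therefore given beside the 6 measured genes. RefSeq numbers the starts of Hbb-b1 and Hbb-b2 as 38285 and 53494, and those of Hbb-bt and Hbb-bs as 103812524 and 103826523. Whether both pairs are numbered on the same sequence is not known here, so these numbers give no distance between them. Which of these beta-globin genes the mice carry is not known here, since the labels used here give no strain.

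Red blood cells carry oxygen on hemoglobin, a tetramer of alpha- and beta-globin chains that each hold a heme group. Mature red cells of mammals have no nucleus, but young ones, the reticulocytes, still hold globin mRNA in large amounts, so globin transcripts in heart tissue are commonly read as a measure of blood left in its vessels. Alas2 is the erythroid form of the first enzyme of heme synthesis. Slc4a1 is the anion exchanger of the red cell membrane, which swaps chloride for bicarbonate. Bpgm makes the bisphosphoglycerate that lowers the oxygen affinity of hemoglobin, and is less restricted to red cells than the others.

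All mice were male and untreated, the tissue was myocardium, and each array held total RNA of 1 sample labelled with 1 dye. The series text speaks of a microarray for RNA methylation (N6-methyladenosine), whereas the sample protocols describe gene expression labelling and the series is typed as expression profiling. Signals are read here as transcript levels, and this could not be settled from the sources used here. The 3 samples labelled NPRA-/- come, per the series title, from mice without NPRA in the heart, made from a conditional (floxed) allele. NPRA is the natriuretic peptide receptor encoded by Npr1. The 5 samples labelled NPRA+/+ are wild type. The labels used here give no age, strain or Cre driver, and the heart holds blood, endothelial and other cells that a heart-restricted deletion may spare. The labels name the samples biological repetitions without tying them to animals, so a p-value weighs a difference against the spread among samples, which may be partly technical.

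The start sites of the adult globin genes and of Alas2 are shown first, as the 150 bases before each start, since these genes are compared with one another below. Sequences are from RefSeq (GRCm38.p6), written 5′ to 3′ on the gene's strand, and 4 of the 7 listed genes had an entry. Capitals mark 4 kinds of letters searched for in the 250 bases before the start: AGATAA or AGATAG or TGATAA or TGATAG (the GATA letters), then CCACCC as well as CCAAT, each on both strands, and TATAAA or TATAAG on the gene's strand.
Hba-a1, chr11:32283522-32283671, plus strand: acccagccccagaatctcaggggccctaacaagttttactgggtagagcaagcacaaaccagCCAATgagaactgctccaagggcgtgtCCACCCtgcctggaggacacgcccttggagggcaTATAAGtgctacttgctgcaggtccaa
Hbb-bs, chr7:103827929-103828078, minus strand: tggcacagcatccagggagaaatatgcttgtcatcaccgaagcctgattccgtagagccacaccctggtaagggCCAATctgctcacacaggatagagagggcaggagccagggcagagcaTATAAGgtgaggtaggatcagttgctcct
Hbb-bt, chr7:103813924-103814073, minus strand: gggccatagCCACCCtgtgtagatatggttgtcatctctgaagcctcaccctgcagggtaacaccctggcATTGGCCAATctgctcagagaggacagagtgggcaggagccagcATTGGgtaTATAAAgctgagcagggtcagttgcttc
Alas2, chrX:150547267-150547416, plus strand: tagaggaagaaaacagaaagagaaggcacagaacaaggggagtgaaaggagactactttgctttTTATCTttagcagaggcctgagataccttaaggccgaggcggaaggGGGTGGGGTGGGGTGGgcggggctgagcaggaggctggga

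The alpha-globin starts of Hba-a1 and Hba-a2 share an unbroken run of 297 of 300 bases, so only the first is printed. The starts of Hbb-bs and Hbb-bt share at most 14 bases in a row. Both alpha-globin genes and both beta-globin genes have TATA and CCAAT letters in the printed stretch, which 11.2% and 33.8% of all 32851 promoters have in the 250 bases searched. Alas2 has 3 overlapping copies of CCACCC on the opposite strand, from 40 to 25 bases before its start, and AGATAA on the opposite strand at 86 to 81 bases. GATA letters occur in 26.5% of all promoters and CCACCC in 28.1%. In Hba-a1 and Hbb-bs the GATA letters lie further upstream, at 183 to 178 and 210 to 205 bases. Such matches are common, and they describe the sequence only.

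Levels are log2 signals relative to the 75th percentile of the same array, so that a value of 1 is a signal of double that percentile. Each probe is compared with itself across arrays and not with other probes. All 6 measured genes were well above background on all 8 arrays. The genotypes overlapped for each of the 6 genes, and 0 of 6 were called by limma at an adjusted p of 0.05. Over all 35329 probes tested, 0.348% were called, 0.32% higher and 0.0283% lower on the NPRA-/- arrays, and the groups did not overlap for 15.4%, with 14.1% above and 1.29% below the wild type range. With the sample numbers as a block the 123 probes called became 0 by repetition number and 22 by the number in the source name, and 0 of the 6 genes were called with either block. Before adjustment, 0 of 6 had p under 0.05, against 19.7% of all probes, and the exact permutation test over the 56 possible splits of the arrays gave p values from 0.339 to 0.786 (two-sided, smallest possible 0.0179). The median fitted difference of the 6 genes was -0.010, beside 0.21 over all probes.

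Hba-a1, an adult alpha-globin gene, had levels of 5.06, 3.70 and 3.77 on NPRA-/- arrays 1 to 3. Its levels were 4.27, 4.20, 4.54, 4.49 and 3.96 on NPRA+/+ arrays 1 to 5. NPRA-/- replicate 1 was thus the highest of all 8 arrays and NPRA-/- replicates 2 and 3 were the lowest. Hba-a1 averaged 4.18 ± 0.76 (SD, n = 3) on the NPRA-/- arrays and 4.29 ± 0.24 (SD, n = 5) on the others, and the fitted difference was -0.12 ± 0.32 (standard error, limma adjusted p = 0.881; 95% interval -0.85 to 0.61).

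Hbb-b2, an adult beta-globin gene, showed the same order at its ends. Its levels were 4.55, 3.17 and 3.13 on the NPRA-/- arrays and 4.15, 3.61, 3.82, 3.94 and 3.51 on the NPRA+/+ arrays. Again NPRA-/- replicate 1 was above every wild type array and the other NPRA-/- arrays were below every one. The fitted difference was -0.19 ± 0.34 (limma adjusted p = 0.806). The span within the NPRA-/- group, 1.42, was more than the span of the wild type arrays, 0.64. In linear terms the signal on NPRA-/- replicate 1 was 2.61 and 2.68 times that on replicates 2 and 3. For Hba-a1 these ratios were 2.56 and 2.44.

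Hbb-bs, an adult beta-globin gene whose probe was dim, followed the same order among the NPRA-/- arrays, at -1.53, -2.46 and -2.60, while the wild type arrays read -2.08, -1.94, -1.65, -1.68 and -2.004. Here too NPRA-/- replicates 2 and 3 were the lowest of all arrays. The genotypes differed by -0.33 ± 0.25 (limma adjusted p = 0.526).

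Hba-a2, the second adult alpha-globin gene, shared the highest array but not the lowest ones. Its levels were 7.21, 6.15 and 6.16 on the NPRA-/- arrays and 6.53, 6.21, 6.21, 5.97 and 5.61 on the NPRA+/+ arrays. NPRA-/- replicate 1 and NPRA+/+ replicate 1 were the highest, as for Hbb-b2, and NPRA+/+ replicates 4 and 5 the lowest. The fitted difference was 0.40 ± 0.30 (limma adjusted p = 0.504; 95% interval -0.28 to 1.08).

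Hbb-bt, the other adult beta-globin gene, had its lowest level on the same array as Hba-a2, with 5.99, 5.16 and 5.03 on the NPRA-/- arrays and 5.62, 4.97, 5.13, 5.18 and 3.92 on the NPRA+/+ arrays. The same pair of arrays was highest, and NPRA+/+ replicate 5 stood lowest. Its difference was 0.43 ± 0.39 (limma adjusted p = 0.589).

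Among the genes outside the globins, Alas2 read 0.10, -0.62 and -0.66 on the NPRA-/- arrays and -0.72, -0.13, 0.38, 0.35 and -0.03 on the NPRA+/+ arrays. The lowest array was a wild type one, replicate 1, with NPRA-/- replicates 2 and 3 next to it. The fitted difference was -0.36 ± 0.29 (limma adjusted p = 0.541; 95% interval -1.04 to 0.31).

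Slc4a1, the anion exchanger, varied least. Its levels were -2.03, -2.07 and -2.02 on the NPRA-/- arrays and -2.33, -2.04, -1.93, -2.09 and -2.30 on the NPRA+/+ arrays. All NPRA-/- values lay inside the wild type range, and the fit gave 0.10 ± 0.14 (limma adjusted p = 0.749; 95% interval -0.22 to 0.41).

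Bpgm read 0.38, -0.08 and -0.35 on the NPRA-/- arrays and -0.31, -0.14, -0.15, -0.03 and -0.31 on the NPRA+/+ arrays. The NPRA-/- group held both the highest and the lowest array, and the fit gave 0.18 ± 0.18 (limma adjusted p = 0.639; 95% interval -0.24 to 0.59).

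**Figure D1:**
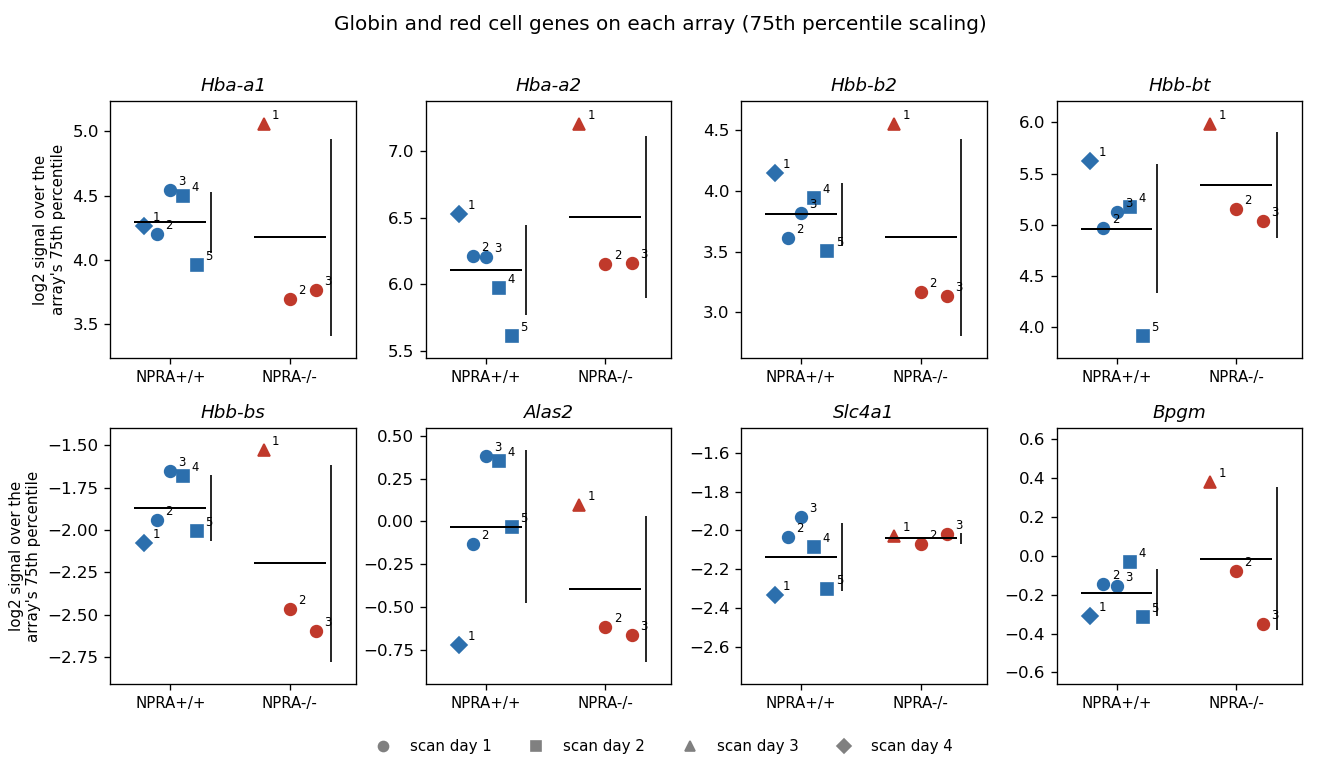
Level of each gene on each array, as log2 signal relative to the array's 75th percentile. Points are arrays, numbered by replicate and shaped by scan day; horizontal lines are group means and vertical lines 1 SD. NPRA-/- replicate 1 is the highest array for Hba-a1, Hba-a2, Hbb-b2, Hbb-bt, Hbb-bs and Bpgm, while NPRA-/- replicates 2 and 3 are the lowest for Hba-a1, Hbb-b2 and Hbb-bs.

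The spread among arrays of one genotype was above that of most probes for the globins. The within-genotype SD was 0.48 for Hba-a1, 0.45 for Hba-a2 and 0.51 for Hbb-b2, larger than that of 73.1%, 69.7% and 75.5% of the probes tested. It was 0.60 for Hbb-bt, above 81.2%, and 0.37 for Hbb-bs, above 60.9%. After quantile normalization the SD of Hba-a2 was 0.19, above 20.6%, while those of Hba-a1 and Hbb-b2 were 0.36 and 0.41, above 59.7% and 66.5%. For Alas2 on the 75th percentile scale it was 0.44, above 69.2% of the probes. Bpgm, with 0.24, and Slc4a1, with 0.14, were above 34.4% and 10.3%.

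The arrays also differed in the shape of their signal distribution. They were scanned on 4 days: NPRA-/- replicates 2 and 3 and NPRA+/+ replicates 2 and 3 on day 1, NPRA+/+ replicates 4 and 5 on day 2, NPRA-/- replicate 1 on day 3 and NPRA+/+ replicate 1 on day 4. The 99th percentile of the signal was 6.11 on NPRA-/- replicate 1 and 5.92 on NPRA+/+ replicate 1, against 4.96 to 5.46 on the other 6 arrays, while the 90th percentile lay between 2.28 and 2.34 on all 8. These 2 arrays also lay apart from the other 6 on the first principal component, which held 47.3% of the variance. NPRA+/+ replicate 5 had the lowest 99th percentile. Hba-a2 and Hbb-bt were highest on the first 2 of these arrays and lowest on the last. The cardiomyocyte markers moved with it: the mean level of 10 such genes, with Actc1 (cardiac actin) the brightest, was 7.29 and 6.98 on those 2 arrays and 5.22 to 6.12 on the others. The part of the array's shape in the globin levels was not tested on its own.

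**Figure D2:**
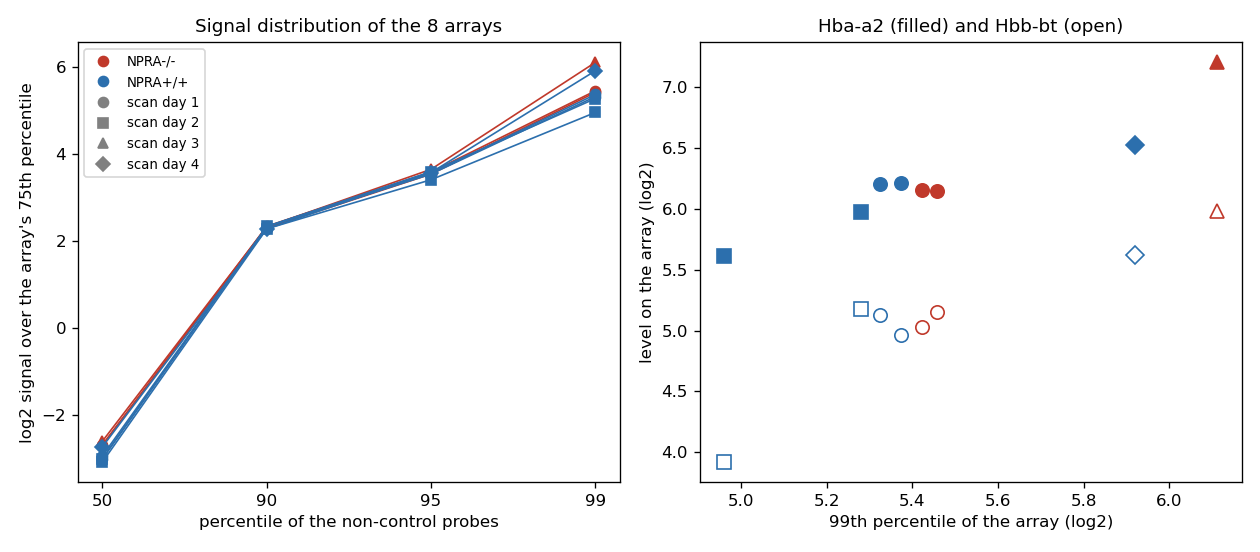
Left, the 50th, 90th, 95th and 99th percentile of the non-control probes on each array, as log2 relative to the 75th percentile; right, the level of Hba-a2 (filled) and Hbb-bt (open) on each array against that array's 99th percentile. Colours give the genotype and shapes the scan day. The arrays of scan days 3 and 4 have the highest 99th percentiles (6.11 and 5.92) and the highest levels of both genes.

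Quantile normalization gives all arrays the same distribution of signals, and the order of the arrays then changed for Hba-a2 but little for Hba-a1 and Hbb-b2. On that log2 scale Hba-a2 read 16.14, 16.10 and 16.15 on the NPRA-/- arrays and 15.83, 16.35, 16.43, 16.24 and 16.26 on the NPRA+/+ arrays. The peak on NPRA-/- replicate 1 was gone, and NPRA+/+ replicate 1 became the lowest array. The fitted difference turned to -0.092 ± 0.16 (limma adjusted p = 0.909).

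Hba-a1 after quantile normalization read 14.58, 13.59 and 13.69 against 14.04, 14.10, 14.50, 14.44 and 14.07. Hbb-b2 read 14.19, 13.04 and 13.05 against 13.94, 13.52, 13.74, 13.83 and 13.55. For both genes NPRA-/- replicate 1 stayed the highest array and NPRA-/- replicates 2 and 3 the lowest. The fitted differences were -0.28 ± 0.25 for Hba-a1 and -0.29 ± 0.28 for Hbb-b2 (limma adjusted p = 0.812 and 0.826).

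Alas2, Slc4a1 and Bpgm differed by -0.39 ± 0.31, -0.11 ± 0.16 and 0.15 ± 0.18 on this scale (limma adjusted p = 0.787, 0.891 and 0.861). The groups again overlapped for all 6, beside 6.9% of all probes for which they did not. In all, 5 of the 6 genes were lower on the NPRA-/- arrays, with a median of -0.20, beside -0.0020 for all probes, of which 50.3% were lower. With the 75th percentile 3 of 6 were lower, beside 25% of all probes. The direction for Hba-a2 and Slc4a1 thus turned with the scaling. None of the 35329 probes was called after quantile normalization by limma (0, with 8.06% at an unadjusted p under 0.05).

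**Figure D3:**
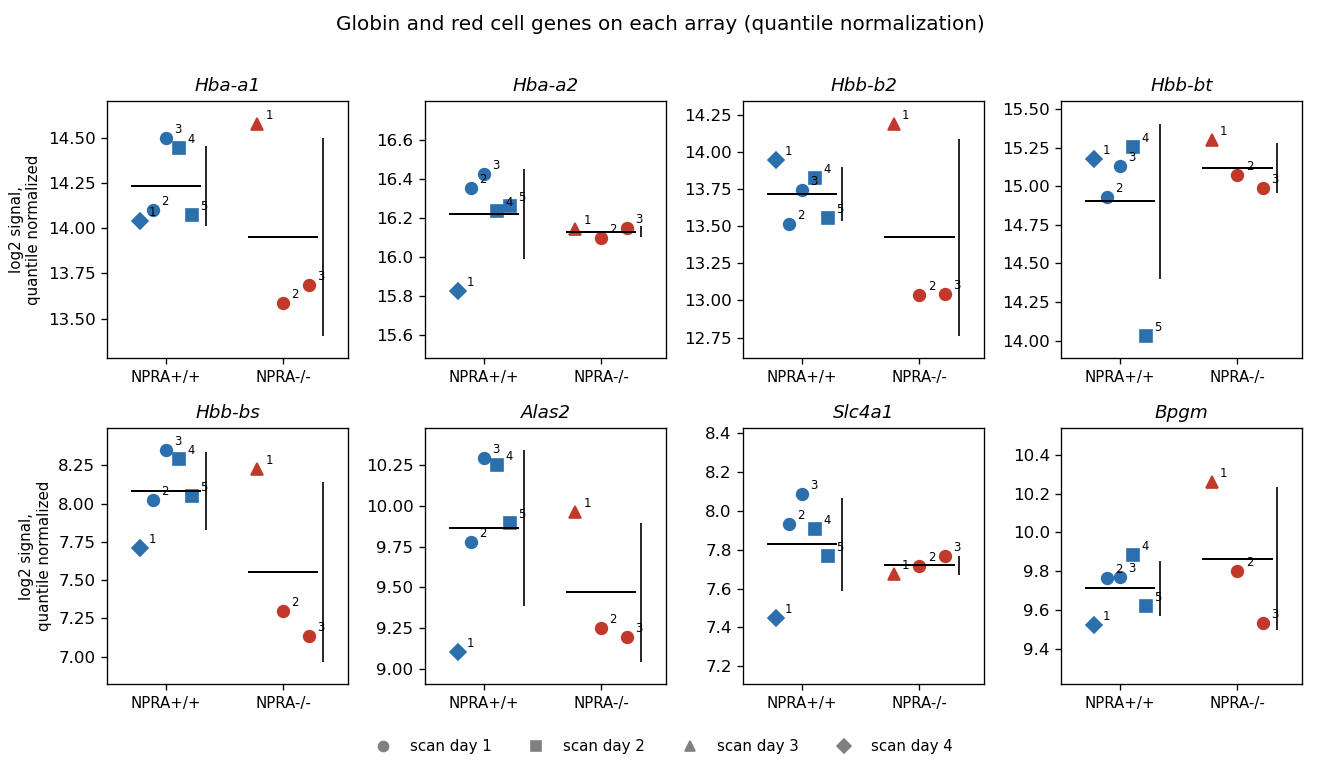
The same genes and arrays after quantile normalization, as log2 signal. Points are arrays, numbered by replicate and shaped by scan day; horizontal lines are group means and vertical lines 1 SD. Hba-a2 lies between 16.10 and 16.15 on the NPRA-/- arrays, while Hba-a1 and Hbb-b2 keep NPRA-/- replicate 1 as the highest array and NPRA-/- replicates 2 and 3 as the lowest.

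Scan day 1 is the only day that held both genotypes, with 2 arrays of each. The NPRA-/- arrays of that day shared a scan time, taken as a slide, and the NPRA+/+ arrays shared another. Genotype and slide therefore cannot be told apart within that day. On that day all 6 genes had a fitted difference below 0, with a median of -0.32, beside 30.8% of all probes below 0 and a median of 0.17 over all probes. Both NPRA-/- arrays were below both wild type arrays for 4 of the 6, Hba-a1, Hba-a2, Hbb-b2 and Alas2, which held for 16.4% of all probes. After quantile normalization, again with 6 of 6 below 0 (53.1% of all probes), this count was 5 of 6, with Slc4a1 added, beside 33.4% of all probes. NPRA-/- replicates 2 and 3 were below all 5 wild type arrays for Hba-a1 and Hbb-b2, 2 of the 6, on either scale, beside 3.08% and 7.83% of all probes. The 6 genes share their arrays and, if they mark the same blood cells, are not independent of one another.

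Within day 1, Hbb-b2 was the single gene of the 6 that limma called, at -0.57 ± 0.11 (adjusted p = 0.0439), on a day on which 1.37% of all probes were called lower and 15.6% higher. Hbb-bs, outside the 6, was called lower as well (-0.74 ± 0.14, limma adjusted p = 0.0416). After quantile normalization the difference of Hbb-b2 was -0.59, and 0 of 6 and 0 of all probes were called (limma, smallest adjusted p of the 6 genes 0.0838). Hba-a1 differed by -0.64 ± 0.15 (adjusted p = 0.0605) and Alas2 by -0.77 ± 0.20 (adjusted p = 0.0731), while Hba-a2, Slc4a1 and Bpgm differed by -0.054, -0.064 and -0.064. With scan day as a block in the fit of all arrays the differences are the same and 0 of 6 were called (limma, smallest adjusted p = 0.110).

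Outside day 1 a genotype comparison within a day was not possible, since days 2, 3 and 4 held 1 genotype each. Leaving out NPRA-/- replicate 1 moved the median of the 6 genes to -0.29, and Hba-a1, Hbb-b2 and Alas2 to -0.56, -0.66 and -0.61, with 0 of 6 called by limma (smallest adjusted p = 0.158). Leaving out NPRA-/- replicate 2 or 3 turned Hba-a1 to 0.12 and 0.086 and Hbb-b2 to 0.036 and 0.054. The sign of the genotype difference of these 2 genes therefore depended on which NPRA-/- arrays were used. With arrays weighted by their fit to the group means, limma called Alas2 (-0.68, adjusted p = 0.0153) and Hbb-bs (-0.65, adjusted p = 0.0103) lower, beside 2.12% of all probes called lower and 24.9% higher.

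**Figure D4:**
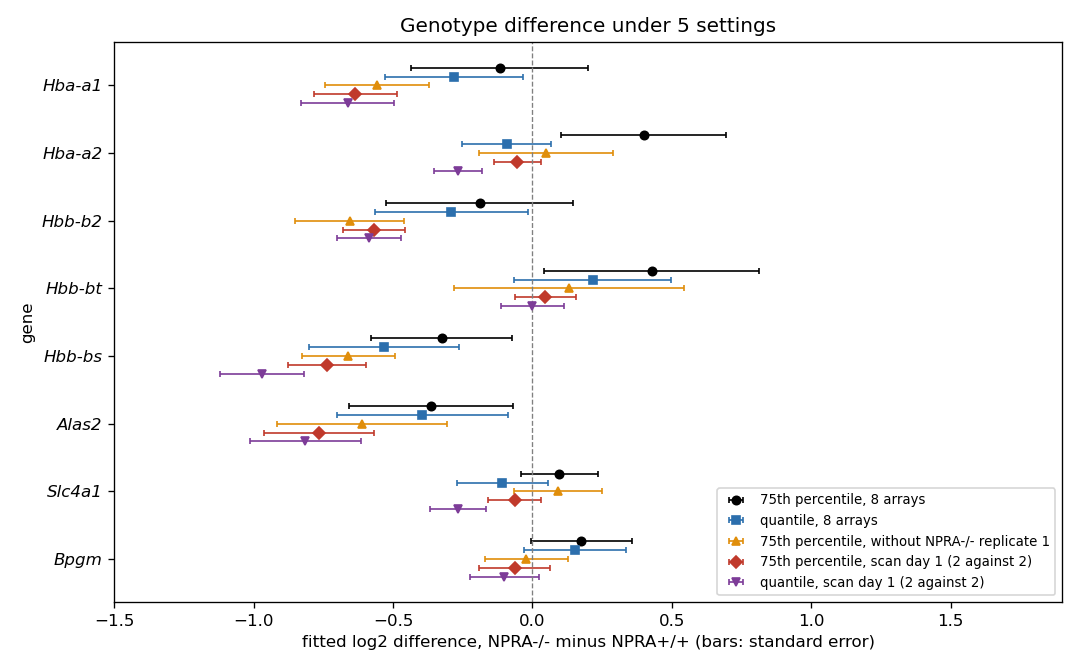
Fitted log2 difference, NPRA-/- minus NPRA+/+, of each gene under 5 settings, with standard errors as bars. The differences of Hba-a1, Hbb-b2, Hbb-bs and Alas2 lie below 0 in all 5, from -0.12 to -0.97. Those of Hba-a2, Slc4a1 and Bpgm lie on either side of 0. The settings on scan day 1 leave out NPRA-/- replicate 1 as well. In settings not drawn Hba-a1 and Hbb-b2 turned above 0, as without NPRA-/- replicate 2 (0.12 and 0.036).

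How far the genes moved together was measured over the 8 arrays, for the 15 pairs of the 6 genes, with exact permutation p values adjusted over the 15 pairs. The permutation takes the arrays as exchangeable, although some share a scan day and slide. Hba-a1 and Hbb-b2, one chain each of the same protein, had the highest correlation on the 75th percentile scale, with Pearson r = 0.93 (exact permutation p = 0.00119, adjusted 0.0179) and Spearman rho = 0.88 (exact permutation p = 0.00724, adjusted 0.109). Without the 2 arrays farthest from the median of Hba-a1, NPRA-/- replicates 1 and 2, r was 0.80. On deviations from the genotype means it was again 0.93, and after quantile normalization it was 0.87 (exact permutation p = 0.00712, adjusted 0.0534).

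None of the other 14 pairs passed on the 75th percentile scale. The 2 alpha-globin genes correlated by 0.67, and by 0.26 without the 2 farthest arrays, NPRA-/- replicates 1 and 2. Hba-a2 and Alas2 had r = -0.045. The median r of the 15 pairs was 0.45, and 0.52 after quantile normalization. On the quantile scale the pair that passed was Hba-a2 and Slc4a1, with r = 0.95 (exact permutation p = 6.94e-04, adjusted 0.0104), Spearman rho = 0.90 (exact permutation p = 0.00456, adjusted 0.0685) and r = 0.81 without NPRA+/+ replicates 1 and 3. With the 75th percentile the same pair had r = 0.23. The arrays of scan days 3 and 4, 1 each, stand apart in all probes, and scan day 1 holds too few arrays for a correlation of its own.

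Hbb-bs, which was not among the listed genes, had r = 0.91 with Hba-a1 and 0.86 with Alas2 on the 75th percentile scale, and 0.94 and 0.90 after quantile normalization, given here as descriptions without a p. Hbb-bt had r = 0.90 with Hba-a2 on the first scale and -0.24 on the second. By the order of the arrays on the 75th percentile scale, Spearman's rho was 0.74 for Hbb-b2 with either Hbb-bs or Hbb-bt. It was 0.60 for Hba-a2 with Hbb-b2 and 0.55 for Hba-a2 with Hbb-bt. For Hbb-bs it was 0.90 with Hba-a1, but 0.33 with either Hba-a2 or Hbb-bt. After quantile normalization rho was -0.14 for Hba-a2 with Hbb-b2 and -0.40 for Hba-a2 with Hbb-bt. Whether the globin probes fall into groups was not tested. Near-identical globin copies can share signal on a probe, and no probe sequences were used here, so a probe's gene is uncertain within each globin family.

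**Figure D5:**
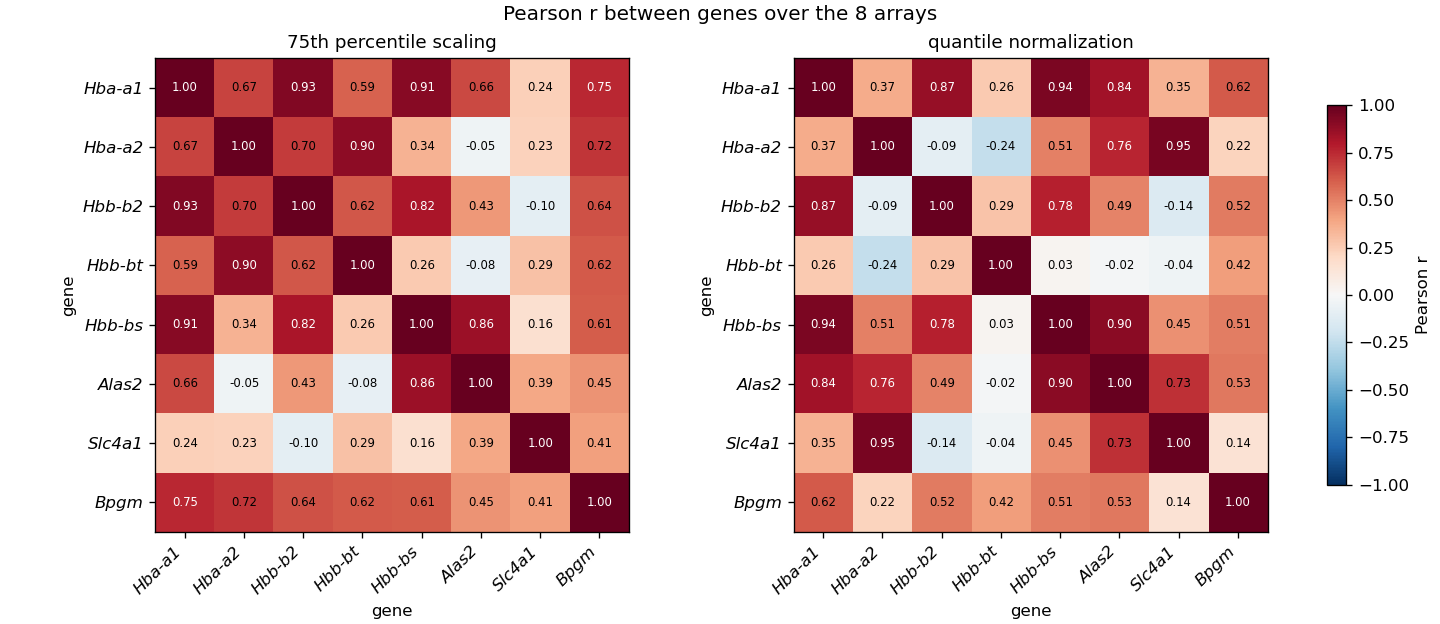
Pearson r between the 6 measured genes, Hbb-bt and Hbb-bs over the 8 arrays, with 75th percentile scaling on the left and quantile normalization on the right; both axes list the genes and colour gives r. Hba-a1 with Hbb-b2 stays high on both (0.93 and 0.87), while Hba-a2 with Hbb-bt goes from 0.90 to -0.24.

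Among 20070 probes above background on all arrays, the named genes most like the Hba-a2 probe on the 75th percentile scale included Chchd10, Ndufa13 and Ndufb8, of mitochondria, and Lhx6, with r from 0.986 to 0.997 over the 8 arrays. For Lhx6 the r of 0.992 came from a probe that was not the brightest of that gene. The brightest Lhx6 probe did not follow Hba-a2 in this way. It was highest on NPRA+/+ replicate 5, at 2.92, the array on which Hba-a2 was lowest. In all, 447 probes had r above 0.9 with the Hba-a2 probe. After quantile normalization the nearest genes were others, Pbx2, Cyba, Nfix, Aamdc and Naf1, and 565 probes had r above 0.9. These values are descriptions: the arrays share their scaling and shape.

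Other genes of red cells were read from 8 lists, of which 79 genes were tested. None was called by limma on either scale (0 of 79) with all arrays. On scan day 1 alone 11 were called higher (13.9%, beside 15.6% of all probes) and 2 lower (2.53%, beside 1.37%), and with array weights 16 higher (20.3%, beside 24.9%) and 2 lower (2.53%, beside 2.12%). On scan day 1 after quantile normalization 0 of 79 were called, as were 0 of all probes. With all arrays, 12 had an unadjusted p under 0.05 and were higher (15.2%, beside 18.3% of all probes) and 0 lower (beside 1.36%). With all arrays after quantile normalization 2 were higher (2.53%, beside 4.02% of all probes) and 0 lower (beside 4.04%). The median difference of the 79 genes was 0.15, beside 0.21 for all probes. Dim probes read higher on the NPRA-/- arrays in general: the median difference was 0.63 over the 7066 dimmest probes and 0.046 over the 7066 brightest. Among the brightest 1% of probes tested (353) it was 0.41, and the difference of Hba-a2 was 0.40.

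Of the other globin genes and their chaperone, 8 of 9 were tested and 0 called. The smallest p was that of Hba-x, embryonic zeta-globin, at -4.68, -4.73 and -4.94 on the NPRA-/- arrays against -6.01, -5.42, -5.49, -6.54 and -5.74 (difference 1.06 ± 0.26, limma adjusted p = 0.0902). It was above background on 3 of 5 wild type arrays. Its groups did not overlap, and 14.1% of all probes likewise lay above the wild type range. After quantile normalization they did overlap, and the difference was 0.48 ± 0.24 (limma adjusted p = 0.664). Hba-x was called higher on scan day 1 alone (0.62, limma adjusted p = 0.0395) and with array weights (0.80, limma adjusted p = 0.0158).

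Of the 16 genes of the red cell membrane and its skeleton, 15 were tested and 0 called by limma (4 higher at an unadjusted p under 0.05). Epb41, which links spectrin to actin, was the brightest, with means of 3.58 ± 0.14 (SD, n = 3) and 3.55 ± 0.35 (SD, n = 5). Cldn13, a claudin, had the smallest p, with 0.85 ± 0.17 (limma adjusted p = 0.0728). Its groups did not overlap on either scale, beside 14.1% of all probes above the wild type range, and 3.7% after quantile normalization. Its quantile-normalized difference was 0.44 ± 0.12 (limma adjusted p = 0.401).

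In heme synthesis 9 of 9 genes were tested and 0 called. Alas1, the form of the first enzyme used outside red cells, was both the brightest and the smallest in p. Its levels were 5.70, 5.33 and 5.16 against 5.03, 4.36, 4.14, 5.14 and 3.89 (difference 0.89 ± 0.31, limma adjusted p = 0.177). The genotypes did not overlap, and 14.1% of all probes likewise lay above the wild type range. After quantile normalization they did overlap (difference 0.70 ± 0.27, limma adjusted p = 0.580). On the 75th percentile scale the mean over all Alas1 probes differed by 0.54. Alas2, its erythroid counterpart, differed by -0.36, as given above. Of the erythroid transcription factors and Epo signalling genes, 10 of 11 were tested and 0 called. Zfpm1, a GATA cofactor, was brightest (means 1.27 ± 0.03, SD, n = 3, and 1.26 ± 0.32, SD, n = 5), and Nfe2 had the smallest p (0.48 ± 0.16, limma adjusted p = 0.154), which turned to -0.049 after quantile normalization.

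The remaining 4 lists, of 9, 11, 10 and 7 genes tested, gave 0 calls. For iron, Fth1, the ferritin heavy chain, was both brightest and smallest in p, with 7.44, 6.46 and 6.48 against 7.08, 6.08, 6.01, 6.02 and 5.44 (difference 0.67 ± 0.38, limma adjusted p = 0.372). Like Hba-a2 it was highest on the 2 arrays of scan days 3 and 4. Among red cell enzymes and transporters Car1, a carbonic anhydrase, had the smallest p (0.59 ± 0.22, limma adjusted p = 0.195), and Aqp1, a water channel also of endothelium, was brightest (means 4.86 ± 0.21, SD, n = 3, and 4.63 ± 0.28, SD, n = 5). In reticulocyte maturation these were Trim58 (0.84 ± 0.26, limma adjusted p = 0.139) and Bnip3l (means 3.39 ± 0.14, SD, n = 3, and 3.20 ± 0.28, SD, n = 5). For the clearance of hemoglobin and heme, Hpx, hemopexin, differed by 0.86 ± 0.39 (limma adjusted p = 0.266), and Blvrb had means of 1.30 ± 0.10 (SD, n = 3) and 1.30 ± 0.11 (SD, n = 5).

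Cell type markers were read beside these. Of 13 erythroid markers 11 were tested, and 6 of these are the genes described above and 2 are Hbb-bs and Hbb-bt, so the list is no independent reading. Its summed level, to which Hba-a2 as its brightest gene adds most, ran from 7.02 to 8.09 on the NPRA-/- arrays and from 6.56 to 7.50 on the NPRA+/+ arrays. Of 9 platelet markers 8 were tested, with summed levels of 2.59 to 2.86 and 2.28 to 2.92, and Pf4 brightest. For 9 of 10 neutrophil markers, with Csf3r brightest, the ranges were 5.28 to 5.55 and 5.03 to 5.50. No list of blood cells held a call with all arrays, and the sums of the genotypes overlapped for these 3. Their unweighted mean levels did not overlap for platelets (-2.75 to -2.39 against -3.35 to -2.99) or neutrophils (-2.75 to -2.50 against -3.30 to -3.10), and did overlap after quantile normalization. At an unadjusted p under 0.05, 4 of 8 platelet and 3 of 9 neutrophil genes were higher and 0 lower (limma). Over all probes 18.3% were higher and 1.36% lower. After quantile normalization 3 and 2 were higher and 1 and 0 lower, beside 4.02% and 4.04% of all probes. Of B cell, T cell and monocyte genes, 2 of 6, 1 of 4 and 1 of 5 were higher and 0 lower. After quantile normalization 0 of these were higher or lower. For monocytes (5 of 6 tested, Ace brightest) the ranges of the sums were 0.2431 to 0.53 and 0.089 to 0.2426, apart by a narrow margin. The monocyte sums did overlap after quantile normalization (10.05 to 10.34 against 10.04 to 10.24). For B cells (6 of 6) the sums ran from -1.001 to -0.64 and from -1.14 to -0.74. For T cells (4 of 6, Lck) they ran from -1.74 to -0.39 and from -2.29 to -0.58. All 10 cardiomyocyte markers were above background, as were 79.5% to 92.6% of all probes, by array. Their mean level of 5.22 to 7.29 above the 75th percentile went with the labelled tissue. Their summed levels were 9.62 to 10.97 and 8.73 to 10.62. After quantile normalization these sums did not overlap, by a narrow margin (19.666 to 19.702 against 19.316 to 19.662), while the unweighted means did overlap. For 8 endothelial markers, with Egfl7 brightest, the sums were 5.996 to 6.15 and 5.83 to 6.26. The part of these cells in the globin levels was not tested. In bulk tissue, the number of red cells and the globin RNA per cell cannot be told apart.

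Npr1, the deleted gene, was near background, clearing it on 2 of the 3 NPRA-/- arrays and on 4 of the 5 wild type ones, and did not set the genotypes apart (0.031 ± 0.40, limma adjusted p = 0.978), with a turned sign after quantile normalization (-0.60 ± 0.37, limma adjusted p = 0.726). The probe's place relative to the deleted part is not known here, so it does not check the labels.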

How the data were processed

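RNA of 8 myocardium samples was hybridised to 1-colour Agilent arrays. Per the submitters' processing notes, spot intensity was extracted by the authors with Agilent Feature Extraction 11.0.1.1. The processed intensity is linear, background-subtracted within its array and unscaled between arrays, per the file headers. The flags of well above background, saturated and outlier spots come from the same deposited files as a score of 0 or 1. The deposited series table holds log2 values whose normalization no label or header names. Its columns rank probes as the scanner values do (rank correlation at least 0.999) and all have a median of 7.04, and it served as an alternative.

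Control spots were left out, and spots of 1 probe were averaged as log2 intensity minus the array's 75th percentile. Probes well above background (at least 0.5 of their spots) on at least 3 of 8 arrays were tested, 35329 of 39429. Saturated spots numbered 0. Names came from RefSeq transcripts (GRCm38.p6), with 27236 of 39429 matched to 1 symbol, and the probe of the highest mean stood for a gene. For the genotype comparison, limma 3.58.1 (R 4.3.3; lmFit and eBayes) gave two-sided p-values, Benjamini-Hochberg adjusted across every probe tested, with a threshold of 0.05. Precision is limited by the number of arrays. The fit was tested on simulated data.

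The members and lists were chosen with earlier results of these data known. Named were all listed genes, the brightest gene and the gene of smallest p of each of 8 pathway lists, the brightest of each of 8 marker lists, the 5 genes most like Hba-a2, and Npr1; a few genes that this rule gave are not reported here. Others (Hbb-bs and genes like Hba-a2 after quantile normalization) were chosen after their values were seen. Whether numbers pair the samples was checked on deviations from the genotype means. Pairs of one repetition number had r = 0.63, 0.28 and 0.36, and pairs by the number in the source name had 0.35, 0.12 and 0.30. All exceed 0.1, the limit set for pairing, so the report gives counts with either number as a block. The pairing comes from these correlations alone: samples of unequal numbers also reached 0.33, and no label says that numbers are shared between genotypes. Arrays with the same scan time were taken to share a slide (6 slides, 0 with both genotypes). Alternatives were other normalizations, filters, blocks, array weights and leaving out arrays.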

Additional observations from a re-analysis of the deposited data

Results flagged for a closer look

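On the quantile-normalized log2 scale, Hbb-bt read 14.03 on NPRA+/+ replicate 5, while the other 4 wild type arrays lay between 14.93 and 15.25. The gap to the nearest array was a share of 0.735 of the group's whole range, above the 95% critical value of 0.71 for 5 arrays. Of the 8 genes checked on 2 scales in the 5 wild type arrays this was the single one, and chance gives about 1 in 20 groups. The cause was not tested.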

How the results depend on the processing

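The count of probes called over the whole array, 123, was the least steady value. It was 0 with quantile normalization, scaling to the median, normexp, the deposited table, scan day block, slide as a random block, the repetition numbers as replicate block, averaged wild type arrays and, added after seeing the data, cyclic loess and quantile normalization on scan day 1 or without NPRA-/- replicate 1. It was 193 without a filter, 3 for probes above background on all arrays, 22 with the source name numbers as replicate block, 5979 on scan day 1 alone, 9557 with array weights, and from 0 to 4088 when single arrays were left out, the highest without NPRA+/+ replicate 1. Of the 6 genes, 0 were called throughout except 1 on scan day 1 alone (Hbb-b2) and 1 with array weights (Alas2), and neither replicate block changed this. In these 2 settings limma also called Hbb-bs lower and Hba-x higher.

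The median difference of the 6 genes, -0.010, moved to -0.30 with scaling to the median, -0.32 with scan day as a block or alone, -0.27 with array weights, -0.43 with quantile normalization on scan day 1, -0.35 with quantile normalization without NPRA-/- replicate 1, and lay between -0.29 (without NPRA-/- replicate 1) and 0.12 when single arrays were left out.

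Signs turned for uncalled differences. Quantile normalization gave Hba-a2 -0.092, Slc4a1 -0.11, Nfe2 -0.049 and Npr1 -0.60, and the deposited table -0.11, -0.097, -0.041 and -0.59. Cyclic loess gave Slc4a1 -0.098, Nfe2 -0.067 and Npr1 -0.55, and the median Slc4a1 -0.19, Bpgm -0.11 and Npr1 -0.26. Scan day 1, alone or as a block, gave Hba-a2 -0.054, Slc4a1 -0.064 and Bpgm -0.064; joined with quantile normalization -0.27, -0.27, -0.10 and Nfe2 -0.12. Quantile normalization without NPRA-/- replicate 1 gave Hba-a2 -0.099, Slc4a1 -0.086, Bpgm -0.045 and Npr1 -0.28. The random slide block gave Hba-a1 0.10, Hbb-b2 0.0015 and Npr1 -0.20, and the replicate block Hba-a1 0.028 and Npr1 -0.025 by source name number and Npr1 -0.028 by repetition number. Array weights gave Bpgm -0.031. Leaving out single arrays gave ranges of -0.023 to 0.34 for Bpgm, -0.56 to 0.12 for Hba-a1, -0.66 to 0.054 for Hbb-b2 and -0.14 to 0.32 for Npr1. The cause was not tested.

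With 3 and 5 arrays, standard errors of the 6 genes were 0.14 to 0.34, and Npr1 lies near background.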
